A study of Homo sapiens with 6 samples.

Results

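The mRNAs of 39 genes that add, remove or bind acetyl groups on histones were compared between control LX-2 cells and LX-2 cells in which OGT was silenced. The genes were taken by symbol from the 16907 symbols of the count files and comprised 13 acetyltransferases, 15 deacetylases, 8 bromodomain readers and 3 corepressor subunits. All 39 were found in every library and all 39 passed the filter on low counts. LX-2 is an immortalised human hepatic stellate cell line, a model of the perisinusoidal liver cells behind most scar-forming myofibroblasts. Cells were transfected for 72 h with 20 nM of a non-targeting siRNA (siControl) or of a pool of siRNAs directed at OGT (siOGT). OGT is the only known transferase that puts O-GlcNAc on nuclear and cytosolic proteins. Each group had 3 libraries from separate experiments, and libraries of the same replicate number formed a pair. The labels name no other agent and no genetic change in either group. The siControl and the siOGT pool were different commercial products, so an effect of the product and an effect of OGT loss cannot be told apart here. The study also followed acetylation of lysine 27 on histone H3 (H3K27ac) in these cells under an OGT inhibitor, and the question here was which genes of the acetylation machinery differed in mRNA level when OGT was silenced.

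Histone acetylation is set by opposing enzymes. Acetyltransferases move an acetyl group from acetyl-CoA to lysines of histone tails, zinc-dependent deacetylases (HDACs) and NAD-dependent sirtuins take it off, and bromodomain proteins dock on the acetylated lysine and bring in the transcription machinery. H3K27ac marks active promoters and enhancers, and its main writers are p300 and its relative CBP.

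OGT itself had 177, 137 and 121 CPM (the count relative to its library total, scaled with the TMM factor of the library) in siControl replicates 1 to 3 and 39.9, 27 and 29.2 CPM in siOGT. Every siOGT library therefore lay below every siControl library, with a log2 difference of -2.18 (SE 0.073). Libraries held between 25996770 and 27966801 expected counts, and the least abundant member count in any library was 234. Of 12 stellate and myofibroblast markers 9 were detected at a mean of 1 CPM or more. Of 7 hepatocyte markers 1 was detected, and the defining hepatocyte genes ALB, APOB, TTR and HNF4A stayed below the filter on low counts. A list of 18 proliferation genes summed to between 4892 and 5042 CPM in the siControl libraries and between 3760 and 4106 CPM in the siOGT libraries, with 14 genes lower and 0 higher. The part of cell proliferation in the results that follow was not tested, and in bulk RNA fewer cells of a type and less RNA per cell cannot be told apart.

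Levels of the members were compared per kilobase (kb) of the MANE Select transcript, the reference transcript chosen for each gene. In siControl cells they spanned 39.5-fold, from BRD2 at 103 CPM per kb to HDAC9 at 2.62 CPM per kb. Below BRD2 came HDAC7 at 70.4, SIRT2 at 63.5, HDAC3 at 53.1 and HDAC1 at 51.8 CPM per kb. The writers of H3K27ac were in the middle of the order, with CREBBP at 22.4 and EP300 at 21.2 CPM per kb. HDAC4 at 2.95 and KAT6B at 4.48 CPM per kb were next to HDAC9 at the low end. In 30 of the 38 steps of this order the library ranges of the neighbours overlapped, so most neighbouring ranks cannot be separated. Which transcripts LX-2 cells make was not tested, and the order depends on the reference lengths. HDAC1 and HDAC2 had siControl means of 110 and 119 CPM, on reference transcripts of 2118 and 9737 bp. Per kb HDAC2 was at 12.2 CPM, below HDAC1.

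**Figure D1:**
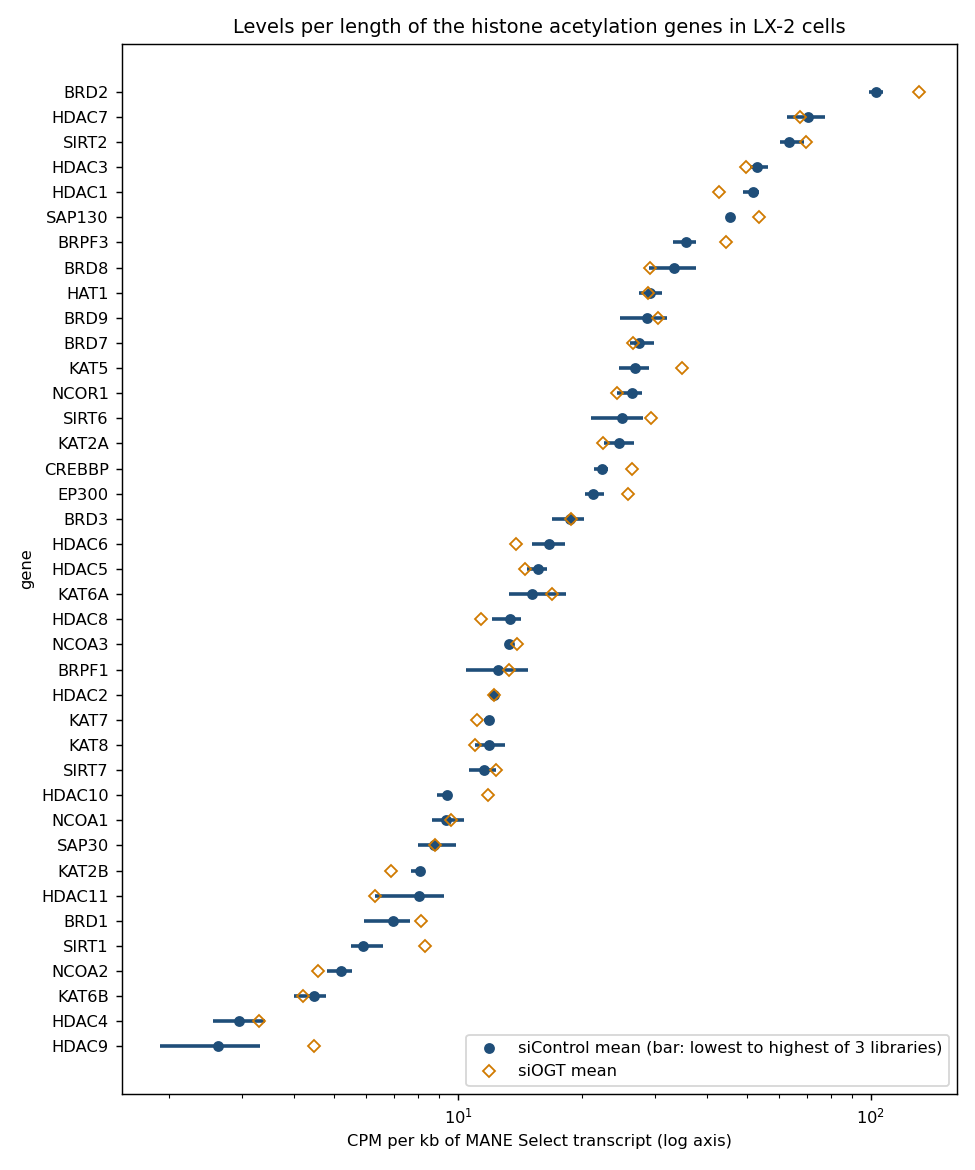
Levels of the 39 genes in CPM per kb of MANE Select transcript (log axis), ordered by the siControl mean. Filled points are siControl means with a bar from the lowest to the highest of 3 libraries, and open diamonds are siOGT means. BRD2 was highest at 103 CPM per kb and HDAC9 lowest at 2.62 CPM per kb in siControl.

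After OGT silencing 17 of the 39 members passed the test (43.6%), 11 of them higher and 6 lower in siOGT, whereas 25.4% of all 14853 genes tested passed. A gene was called where the adjusted p-value of the paired edgeR test was at most 0.05. Of all genes 12.7% were called higher and 12.7% lower. Among the 9494 genes whose mean level fell in the range of the members (9.64 to 581 CPM), a background chosen after the values were seen, 32.5% were called, 16.3% higher and 16.2% lower. The changes were small. The 17 called members lay between -0.37 and 0.78 on the log2 scale, none reached a 2-fold change, and their median absolute log2 fold change was 0.27 against 0.34 for all called genes. The median log2 fold change was 0.0094 over the members and 0.0068 over all genes. The 3 siOGT libraries did not overlap the 3 siControl libraries for 12 members, 9 higher and 3 lower, against 23.9% of all genes (12.1% higher, 11.8% lower). In 24 members all 3 pairs had the same sign, as did 54.0% of all genes.

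These calls rest on the pairing. Without the replicate block 0 of the 39 members were called by edgeR and 5 by DESeq2, with background shares of 0.875% and 5.72%, and 11 members had an unadjusted p below 0.05 in each of these fits. DESeq2 with the block called 12 members against 16.3% of all genes, 9 higher and 3 lower. With libraries scaled by their totals alone, 11 members were called higher and 3 lower, against 14.2% of all genes higher and 10.9% lower.

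**Figure D2:**
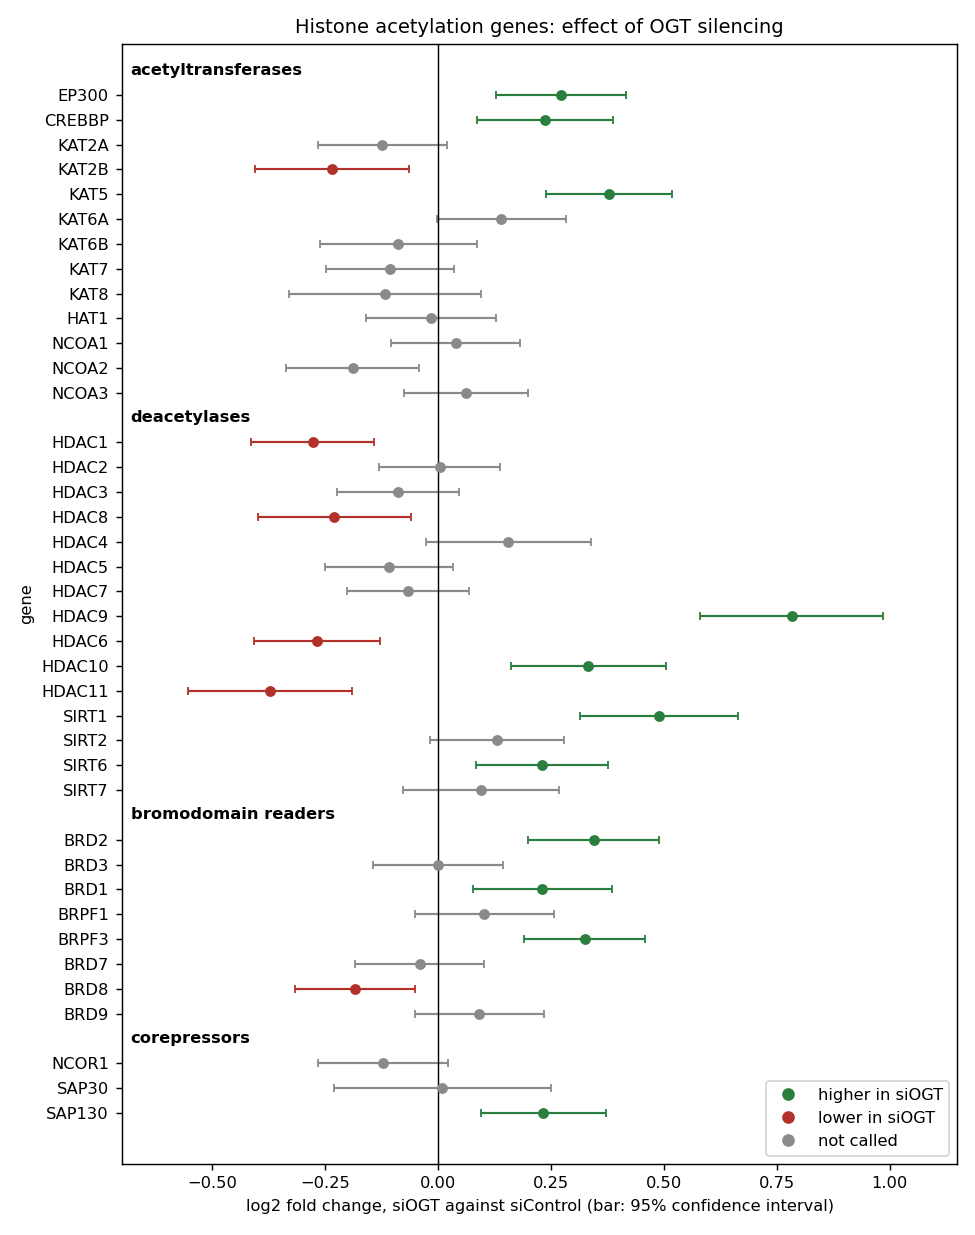
Log2 fold change of each of the 39 genes, siOGT against siControl, with its 95% confidence interval, grouped by role. Green points are called higher, red points lower and grey points not called (edgeR with replicate block, adjusted p of at most 0.05). HDAC9 had the highest value at 0.78 and HDAC11 the lowest at -0.37.

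Both writers of H3K27ac were higher in siOGT. EP300 (chromosome 22, 41092592 to 41180077, hg38), which encodes p300, had 199, 179 and 182 CPM in siControl replicates 1 to 3 and 266, 203 and 210 CPM in siOGT. CREBBP (chromosome 16, 3725054 to 3880713), which encodes CBP, had 245, 230 and 249 CPM in siControl and 313, 286 and 257 CPM in siOGT. For both genes the groups did not overlap and all 3 pairs went up, the siOGT library of replicate 1 being the highest. The log2 fold change was 0.27 for EP300 (SE 0.068, edgeR adjusted p = 0.00705) and 0.24 for CREBBP (SE 0.071, edgeR adjusted p = 0.0207). Together the p300 and CBP mRNAs summed to 428 ± 17.7 CPM in siControl cells against 511 ± 59.1 CPM after siOGT (SD over 3 libraries, as for all means that follow). Without replicate 1 neither gene was called, with edgeR adjusted p = 0.209 for EP300 and 0.287 for CREBBP, and without replicate 2 CREBBP had 0.0968. Over all 10 alternative fits the adjusted p ranged from 0.00167 to 0.238 for EP300 and from 0.0014 to 0.287 for CREBBP.

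The sequences just upstream of the RefSeq starts of this pair are shown because the genes encode close relatives that were both higher, by amounts that differed by 0.03 ± 0.15 on the log2 scale over 3 pairs (EP300 at chr22:41092342-41092591, plus strand, and CREBBP at chr16:3880714-3880963, minus strand, GRCh38.p14, 5′ to 3′). Capitals mark matches on either strand to the GC box GGGCGG, the CCAAT box CCAAT, the E-box CACGTG and the CRE motif TGACG.
EP300: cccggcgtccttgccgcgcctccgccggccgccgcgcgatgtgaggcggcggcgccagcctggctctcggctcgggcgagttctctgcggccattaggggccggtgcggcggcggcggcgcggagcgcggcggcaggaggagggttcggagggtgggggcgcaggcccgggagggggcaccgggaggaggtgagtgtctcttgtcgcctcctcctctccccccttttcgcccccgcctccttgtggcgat
CREBBP: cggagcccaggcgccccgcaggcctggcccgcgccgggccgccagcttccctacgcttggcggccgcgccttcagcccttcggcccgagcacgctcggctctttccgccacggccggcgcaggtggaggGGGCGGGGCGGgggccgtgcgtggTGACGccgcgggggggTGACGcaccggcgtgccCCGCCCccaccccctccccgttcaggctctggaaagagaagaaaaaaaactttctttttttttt
The CREBBP window held 3 GC boxes and 2 CRE motifs, and the EP300 window held none of the motifs, although 76.8% of its bases were G or C against 72.4% in CREBBP. A second RefSeq start of CREBBP, not shown, had a window with 84.0% G or C and 4 GC boxes. The EP300 window also contains the annotated microRNA gene MIR1281. The GC box was found in 42.6% of all 35116 promoter windows of the same length and the CRE motif in 21.2%. A match is a description of letters and no evidence of binding.

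Among the other acetyltransferases 1 was higher, 1 was lower and 9 were not called. KAT5 (chromosome 11, 65711996 to 65719604), which encodes TIP60, the catalytic subunit of a complex that acetylates histone H4 and the variant H2A.Z, had 50.9, 56.6 and 60.3 CPM in siControl and 65.4, 76.9 and 75.9 CPM in siOGT. Every siOGT library was above every siControl library, and the 3 pairs rose by similar amounts (0.36, 0.44 and 0.33 on the log2 scale). The log2 fold change was 0.38 (SE 0.066, edgeR adjusted p = 5.12e-04), the largest among the acetyltransferases. Of the bases in KAT5 exons 38.6% are also exonic in RNASEH2C on the opposite strand, and reads were counted by strand. KAT2B (chromosome 3, 20040446 to 20154404), which encodes PCAF, a writer of H3K9 acetylation, had 36.8, 33.9 and 36.3 CPM in siControl and 30.2, 33.3 and 27.6 CPM in siOGT. The groups did not overlap, but replicate 2 hardly moved (-0.03 on the log2 scale, against -0.28 and -0.39). Its log2 fold change was -0.23 (SE 0.081, edgeR adjusted p = 0.0422). The call was lost without replicate 1 (adjusted p = 0.212) and without replicate 3 (0.199), with DESeq2 in the same design (0.136) and with library totals (0.0669), over a range of 0.00537 to 0.283 in the 10 alternative fits of edgeR or DESeq2.

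KAT2A, which encodes GCN5, the relative of PCAF, was at 76.3 ± 6.48 CPM in siControl and 70.1 ± 6.94 CPM in siOGT and was not called. The MYST enzymes other than KAT5 were not called either. Their log2 fold changes were 0.14 for KAT6A (MOZ), -0.09 for KAT6B (MORF), -0.11 for KAT7 (HBO1) and -0.12 for KAT8 (MOF). KAT6A was called only without replicate 3 (log2 fold change 0.19, edgeR adjusted p = 0.0435, range over 10 alternatives 0.0435 to 0.712). HAT1, which acetylates newly made histone H4, was at 47.7 ± 3.08 CPM in siControl and 47.2 ± 3.05 CPM in siOGT. The p160 coactivators, which recruit p300 and CBP to nuclear receptors, included the lowest value among the members not called, NCOA2 at -0.19 (edgeR adjusted p = 0.0575). All 3 pairs of NCOA2 were lower. NCOA1 and NCOA3 had log2 fold changes of 0.04 and 0.06.

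**Figure D3:**
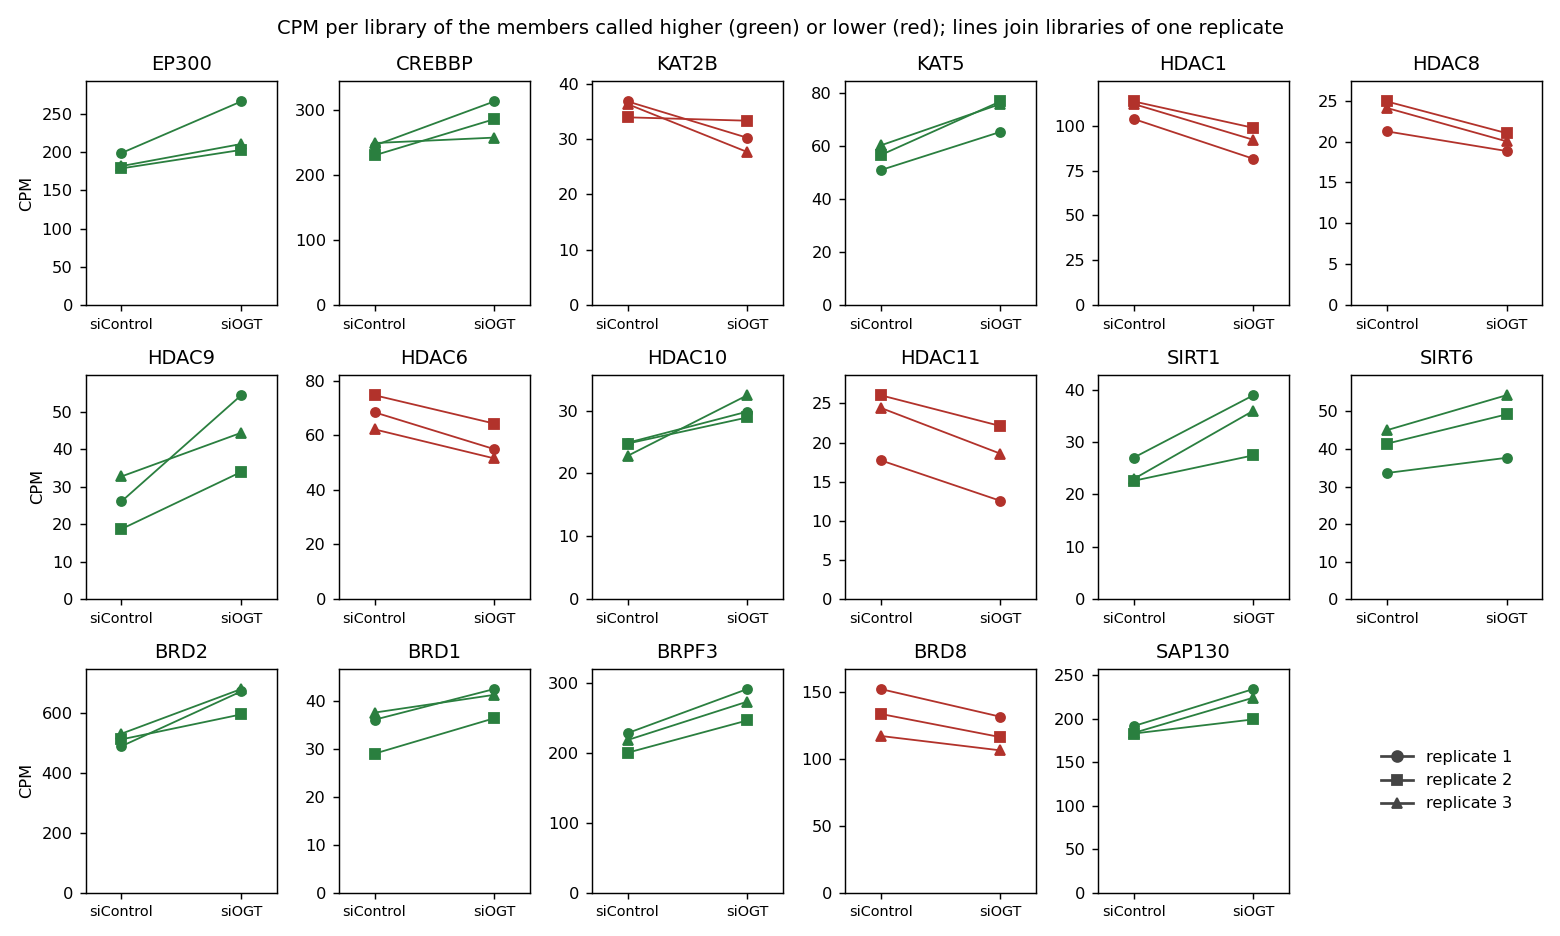
CPM of the 17 called genes in each library, with a line joining the siControl and siOGT library of each replicate (circles replicate 1, squares replicate 2, triangles replicate 3). Each panel has its own axis from 0, green panels are higher and red panels lower in siOGT. All 3 lines slope the same way in each of the 17 panels, which selection by the paired test on these same pairs favours. In HDAC6, HDAC11, SIRT6, BRD1 and BRD8 the groups overlap.

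Of the class I deacetylases, HDAC1, HDAC2 and HDAC3 are nuclear enzymes that act on histones in corepressor complexes. In this class HDAC1 and HDAC8 were lower and HDAC2 and HDAC3 were not called. HDAC1 (chromosome 1, 32292083 to 32333635) had 104, 114 and 112 CPM in siControl and 81.6, 98.8 and 92.1 CPM in siOGT. All 3 siOGT libraries were below all 3 siControl libraries. The log2 fold change was -0.28 (SE 0.065, edgeR adjusted p = 0.0045). HDAC2, which shares the SIN3, NuRD and CoREST complexes with HDAC1, had 116, 118 and 122 CPM in siControl and 112, 124 and 122 CPM in siOGT. Its libraries overlapped, with a log2 fold change of 0.0038 and a 95% confidence interval of -0.13 to 0.14. HDAC3, the catalytic subunit of the NCoR and SMRT complexes, had 109, 99.9 and 98.8 CPM in siControl and 102, 90.0 and 97.9 CPM in siOGT, and the groups overlapped (log2 fold change -0.09, edgeR adjusted p = 0.352). HDAC8, which deacetylates the cohesin subunit SMC3, had 21.2, 24.9 and 24.1 CPM in siControl and 18.8, 21.0 and 20.0 CPM in siOGT. The highest siOGT library was only just below the lowest siControl library, and the log2 fold change was -0.23 (SE 0.081, edgeR adjusted p = 0.0462).

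Within each pair HDAC1 moved below HDAC2 by nearly the same amount, -0.29, -0.26 and -0.28 on the log2 scale (mean -0.28 ± 0.015, SD, n = 3 pairs). With 3 pairs an exact sign-flip permutation test cannot go below p = 0.25, and 12 such pairs of related genes were compared, so this is a value without a call. The 4 class I mRNAs summed to 350, 357 and 357 CPM in siControl and 314, 334 and 332 CPM in siOGT. HDAC1 was not called without replicate 1 (edgeR adjusted p = 0.0968, range over 10 alternatives 0.00137 to 0.193). HDAC8 was not called without replicate 1 (0.126), 2 (0.14) or 3 (0.11) in edgeR, nor with DESeq2 in the paired design (adjusted p = 0.186) or with library totals (0.0713), a range of 0.0427 to 0.318.

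The windows upstream of HDAC1 (chr1:32291833-32292082, plus strand) and HDAC2 (chr6:113971149-113971398, minus strand, both GRCh38.p14, 5′ to 3′) are shown because HDAC1 was called and its close relative HDAC2 was not. The HDAC2 window lies upstream of the RefSeq start, but within the longer extent that GENCODE gives this gene. Capitals mark the same 4 motifs.
HDAC1: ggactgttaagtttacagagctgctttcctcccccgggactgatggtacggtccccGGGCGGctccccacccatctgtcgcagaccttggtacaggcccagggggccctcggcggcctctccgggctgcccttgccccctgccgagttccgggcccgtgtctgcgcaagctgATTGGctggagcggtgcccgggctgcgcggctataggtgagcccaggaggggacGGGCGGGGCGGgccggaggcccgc
HDAC2: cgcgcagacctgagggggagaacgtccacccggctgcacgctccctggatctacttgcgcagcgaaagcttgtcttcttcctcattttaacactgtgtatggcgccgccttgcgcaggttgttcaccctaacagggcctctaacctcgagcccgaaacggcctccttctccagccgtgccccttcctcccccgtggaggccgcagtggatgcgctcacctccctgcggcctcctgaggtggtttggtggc
HDAC1 held 3 GC boxes and 1 CCAAT box, and HDAC2 held none of the 4 motifs in its 250 bases. CCAAT was present in 32.0% of all windows.

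The class IIa deacetylases shuttle between nucleus and cytoplasm and bind MEF2 transcription factors. HDAC9 (chromosome 7, 18086949 to 19002416) was the member with the largest change, at 26.1, 18.7 and 32.7 CPM in siControl and 54.5, 34.0 and 44.4 CPM in siOGT. Its level varied widely between replicates, and the lowest siOGT library lay only just above the highest siControl library, while each pair rose. It gained 0.78 on the log2 scale (SE 0.096, edgeR adjusted p = 2.11e-05, 95% confidence interval 0.58 to 0.99), a 1.72-fold difference. The other class IIa genes were not called, HDAC4 at 0.16, HDAC5 at -0.11 and HDAC7 at -0.07. HDAC4 was called only without replicate 3 (0.26, edgeR adjusted p = 0.0458, range over 10 alternatives 0.0458 to 0.765). HDAC9 moved above each of them in all 3 pairs, by 0.63 ± 0.22 over HDAC4, 0.89 ± 0.25 over HDAC5 and 0.85 ± 0.32 over HDAC7 (SD, n = 3 pairs). The summed class IIa level was 431 ± 26.2 CPM in siControl and 433 ± 19.3 CPM in siOGT.

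The class IIb enzymes moved in opposite directions. HDAC6 (chromosome X, 48801377 to 48824982), a cytoplasmic deacetylase of tubulin, had 68.5, 74.8 and 62.2 CPM in siControl and 55.0, 64.4 and 51.6 CPM in siOGT. The groups overlapped across replicates, but within each pair siOGT was lower, and the log2 fold change was -0.27 (SE 0.066, edgeR adjusted p = 0.00657). HDAC10 (chromosome 22, 50245183 to 50251405), a polyamine deacetylase, had 24.9, 24.7 and 22.8 CPM in siControl and 29.8, 28.9 and 32.4 CPM in siOGT. Its groups did not overlap, and the log2 fold change was 0.33 (SE 0.082, edgeR adjusted p = 0.00623). Of the exonic bases of HDAC10 55.8% are also exonic in MAPK12 on the same strand, so the HDAC10 value is uncertain, although its counts were whole numbers in all 6 libraries. HDAC11 (chromosome 3, 13479724 to 13506424), the class IV enzyme, which removes fatty acyl groups, had 17.7, 26.0 and 24.4 CPM in siControl and 12.6, 22.1 and 18.6 CPM in siOGT. Replicate 1 was the lowest in both groups, the groups overlapped, and each pair was lower in siOGT (log2 fold change -0.37, SE 0.086, edgeR adjusted p = 0.00437). Without replicate 1 HDAC6 and HDAC11 were not called (edgeR adjusted p = 0.0927 and 0.0585), and without replicate 3 HDAC10 was not (0.0589). Over the 10 alternatives the ranges were 0.00281 to 0.258 for HDAC6, 9.02e-04 to 0.401 for HDAC11 and 0.00133 to 0.138 for HDAC10.

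**Figure D4:**
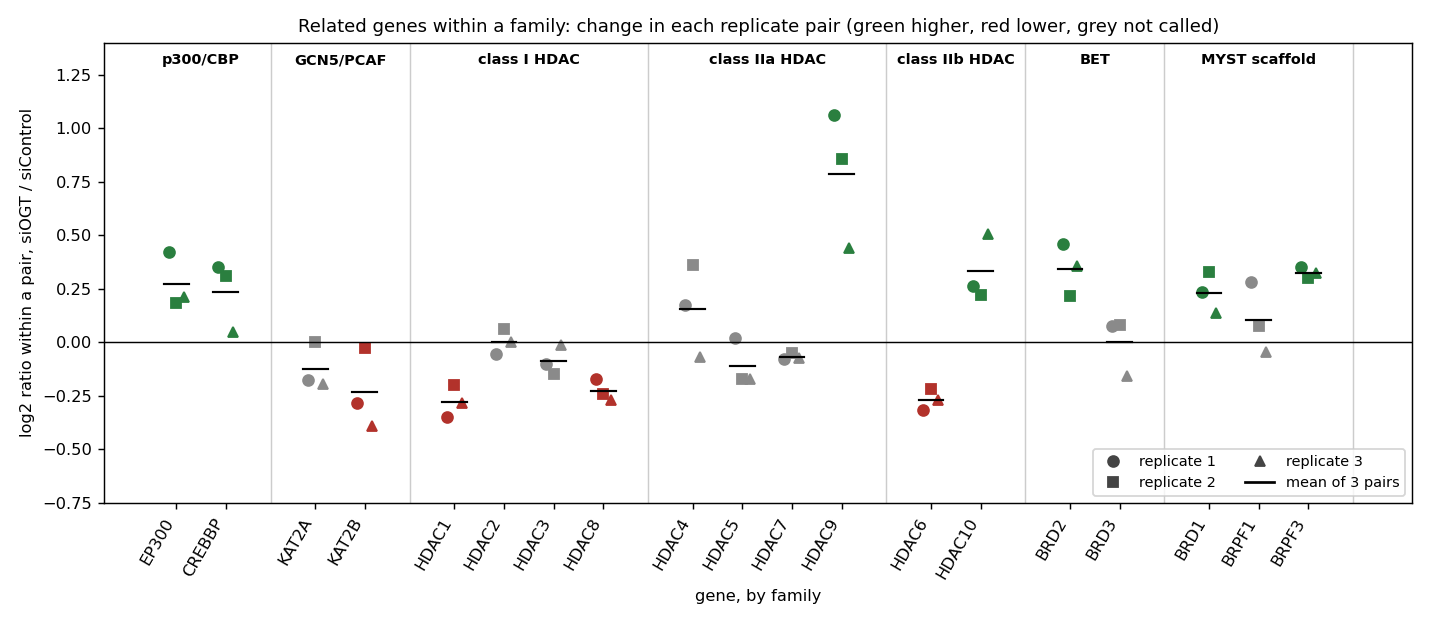
Log2 ratio of siOGT over siControl within each replicate pair for 19 genes of 7 families, with circles, squares and triangles for replicates 1, 2 and 3 and a black line for their mean. Green genes are called higher, red lower and grey not called. HDAC1 lies below HDAC2 by between 0.26 and 0.29 in every pair, HDAC6 and HDAC10 lie on opposite sides of 0, and HDAC9 lies above the other class IIa genes.

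Of the 4 sirtuins with a nuclear or cytoplasmic role, SIRT1 and SIRT6 were higher. SIRT1 (chromosome 10, 67884656 to 67918390), which deacetylates histones and transcription factors such as p53, had 27, 22.6 and 22.9 CPM in siControl and 38.9, 27.5 and 36.0 CPM in siOGT. The groups were separated by a narrow margin at siOGT replicate 2, and the log2 fold change was 0.49 (SE 0.083, edgeR adjusted p = 3.89e-04). SIRT6 (chromosome 19, 4174109 to 4182566), which acts on histone H3 lysine 9, had 33.6, 41.4 and 45.0 CPM in siControl and 37.6, 49.2 and 54.3 CPM in siOGT. Its groups overlapped and each pair was higher (log2 fold change 0.23, SE 0.070, edgeR adjusted p = 0.0215). SIRT2 and SIRT7 had log2 fold changes of 0.13 and 0.10 and were not called. SIRT6 was not called without replicate 1, 2 or 3 (edgeR adjusted p = 0.0788, 0.0863 and 0.0699) or with DESeq2 in the paired design (0.085), over a range of 0.0138 to 0.456.

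The window upstream of SIRT1 (chr10:67884406-67884655, plus strand, GRCh38.p14, 5′ to 3′) is shown as an example, and capitals mark the same 4 motifs. SIRT1 was called in 9 of the 10 alternatives, as were KAT5, HDAC9 and BRPF3, whose windows are not shown.
SIRT1: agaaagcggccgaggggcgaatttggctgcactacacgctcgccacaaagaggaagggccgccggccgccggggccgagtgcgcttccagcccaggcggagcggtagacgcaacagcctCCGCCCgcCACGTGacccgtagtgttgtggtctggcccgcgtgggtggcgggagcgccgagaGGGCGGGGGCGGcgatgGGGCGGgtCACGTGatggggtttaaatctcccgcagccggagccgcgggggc
SIRT1 had 2 E-boxes and 4 GC boxes. The E-box was in 6.3% of all windows. KAT5, which was called, and HDAC4, which was not, were the other members with an E-box among the 34 members that had a window in the RefSeq table. Over the 59 windows of these members the GC box was in 57.6%, CCAAT in 23.7%, the E-box in 5.1% and the CRE motif in 22.0%, with a median GC content of 66.4% against 58.0% in all windows.

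Among the bromodomain readers BRD2, BRD1 and BRPF3 were higher and BRD8 was lower. BRD2 (chromosome 6, 32968594 to 32981505), a BET protein that binds acetylated histone H4 and recruits the transcription machinery, was the most abundant member and had 490, 513 and 532 CPM in siControl and 673, 596 and 681 CPM in siOGT. Every siOGT library was above every siControl library, the difference being 0.34 on the log2 scale (SE 0.069, edgeR adjusted p = 0.00153). BRD3, the other BET member measured here, was at 106 ± 9.58 CPM before and 106 ± 13.0 CPM after silencing. BRD2 moved above BRD3 in each pair, by 0.34 ± 0.19 (SD, n = 3 pairs). The sum of both was 585, 627 and 640 CPM in siControl against 774, 717 and 778 CPM in siOGT.

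BRPF3 and BRD1 are scaffolds that hold MYST acetyltransferases on chromatin. BRPF3 (chromosome 6, 36196744 to 36232790) had 228, 200 and 219 CPM in siControl and 292, 247 and 274 CPM in siOGT. Its pairs rose by 0.35, 0.30 and 0.32 on the log2 scale, the groups did not overlap, and the log2 fold change was 0.33 (SE 0.064, edgeR adjusted p = 0.00126). BRD1 (chromosome 22, 49773283 to 49827873) had 36.1, 29.0 and 37.5 CPM in siControl and 42.5, 36.4 and 41.2 CPM in siOGT, and the groups overlapped although each pair was higher (log2 fold change 0.23, SE 0.073, edgeR adjusted p = 0.0272). No BRD1 count was a whole number in any library, so reads were divided between it and other features throughout. Among the other called members, KAT5 and HDAC9 had whole numbers in only 3 of 6 libraries and HDAC11 in 5. Of the members not called, BRD9 had whole numbers in 0 libraries, NCOR1 in 1, HDAC4 in 3 and HAT1 in 5. BRPF1, the third scaffold, was not called (0.10). The MYST partners of these scaffolds, KAT6A, KAT6B and KAT7, were not called either, as given above.

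BRD8 (chromosome 5, 138139770 to 138178953), a subunit of the TIP60 complex, had 152, 133 and 117 CPM in siControl and 131, 116 and 106 CPM in siOGT. The groups overlapped and every pair was lower, with the smallest change among the called members (log2 fold change -0.18, SE 0.063, edgeR adjusted p = 0.0409). KAT5, the catalytic subunit of the same complex, was higher, as given above. BRD7 and BRD9, subunits of SWI/SNF remodellers, had log2 fold changes of -0.04 and 0.09 and were not called. Without replicate 1 the edgeR adjusted p was 0.0834 for BRD2, 0.146 for BRD1 and 0.263 for BRD8, and without replicate 2 it was 0.169 for BRD1 and 0.137 for BRD8. DESeq2 in the paired design gave an adjusted p of 0.108 for BRD1 and 0.0589 for BRD8, and library totals gave 0.068 for BRD8. The ranges over 10 alternatives were 2.39e-05 to 0.0988 for BRD2, 0.0174 to 0.386 for BRD1 and 0.0196 to 0.454 for BRD8.

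Of the 3 corepressor subunits SAP130 was higher. SAP130 (chromosome 2, 127941217 to 128028120), a subunit of the SIN3 complex that carries HDAC1 and HDAC2, had 192, 183 and 184 CPM in siControl and 234, 199 and 224 CPM in siOGT. The groups did not overlap (log2 fold change 0.23, SE 0.066, edgeR adjusted p = 0.0146), and without replicate 1 the gene was not called (edgeR adjusted p = 0.197, range over 10 alternatives 0.00715 to 0.215). NCOR1, the scaffold that activates HDAC3, had 288, 260 and 299 CPM in siControl and 264, 263 and 251 CPM in siOGT, with overlapping groups and a log2 difference of -0.12 (edgeR adjusted p = 0.215). SAP30 was the least abundant member by CPM, at 9.61 ± 1.08 in siControl and 9.66 ± 0.41 in siOGT.

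The 22 members that were not called lay between -0.19 (NCOA2) and 0.16 (HDAC4) on the log2 scale. The 95% confidence interval of each of the 22 stayed within 0.5 of 0. Summed over all members of a role, acetyltransferases had 1168 ± 41.0 CPM in siControl and 1263 ± 101 CPM in siOGT. Deacetylases had 1103 ± 47.2 and 1097 ± 52.5 CPM, and readers had 1286 ± 39 and 1474 ± 59.7 CPM. Of the 15 deacetylases in this sum 4 were called higher, 4 lower and 7 were not called. The ratio of summed acetyltransferase to summed deacetylase CPM was 1.14, 0.976 and 1.07 in siControl and 1.33, 1.07 and 1.07 in siOGT. This ratio was above its control in replicates 1 and 2 and nearly level in replicate 3. The sums are not corrected for transcript length, so long transcripts weigh more. The ratio therefore does not compare numbers of mRNA molecules.

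**Figure D5:**
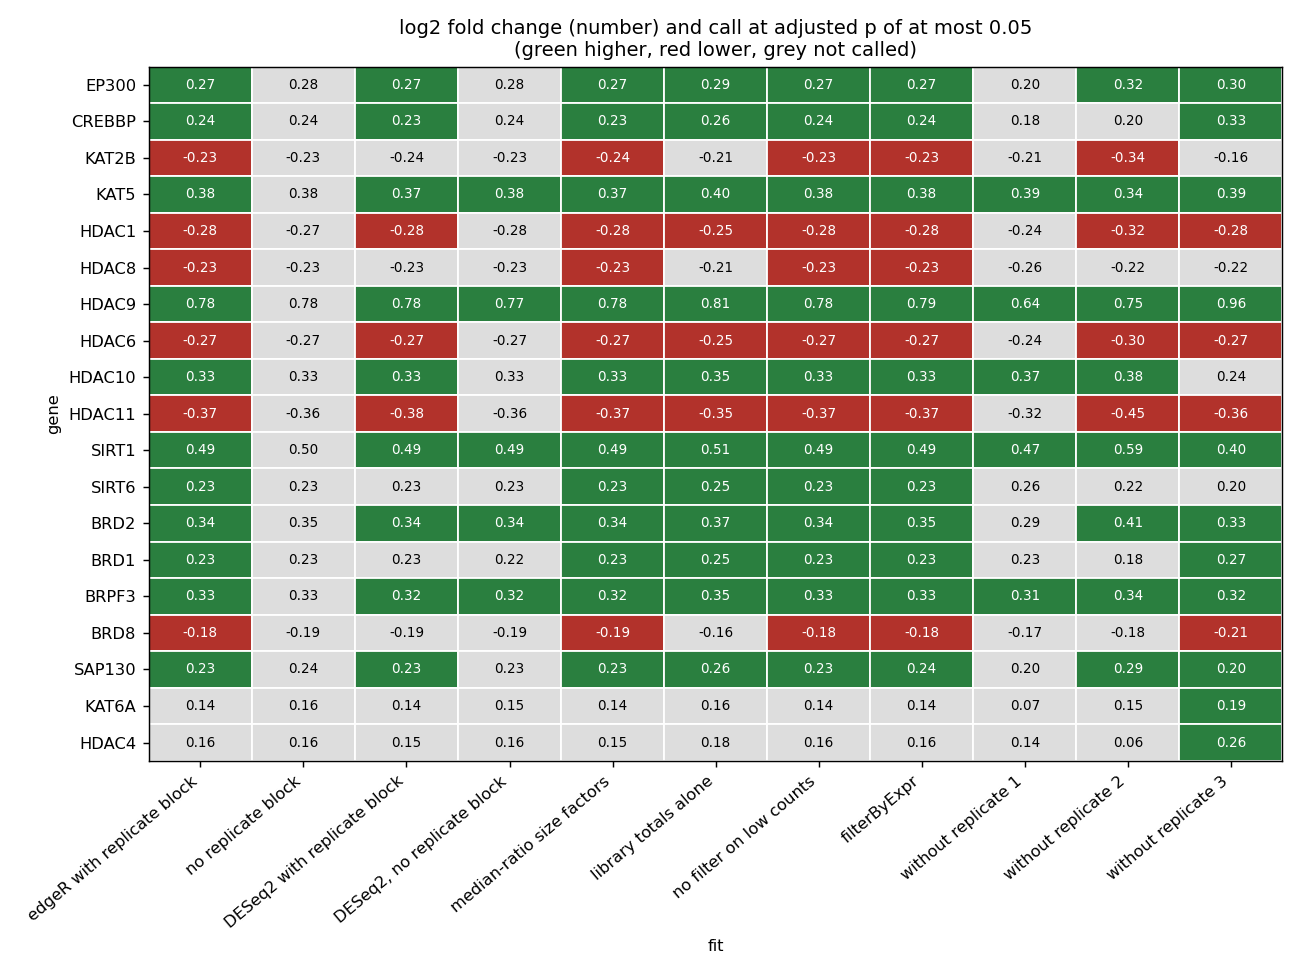
Log2 fold change of the 17 called genes and of KAT6A and HDAC4 in the paired edgeR fit and in 10 alternatives. Green cells are called higher, red lower and grey not called, at an adjusted p of at most 0.05. KAT5, HDAC9, SIRT1 and BRPF3 are called in all columns except edgeR without the replicate block, in which 0 members are called.

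Genes that work with the members were read from 10 lists of complex subunits, other readers and enzymes of acetyl-CoA supply. Of 107 tested 33 were called (30.8%, against 25.4% of all genes), 18 higher and 15 lower. Among the genes in the members' range of mean level, given above, 32.5% were called. With library totals 24 were higher and 8 lower, against 14.2% and 10.9% of all genes. In the SAGA and ATAC complexes, which carry GCN5 or PCAF, 5 of 16 subunits were higher and 2 lower. TADA2B, an adaptor of SAGA, was at 47.1 ± 6.01 CPM in siControl and 69.8 ± 5.93 CPM in siOGT (log2 fold change 0.57, edgeR adjusted p = 7.00e-05). SGF29 and SUPT3H had log2 fold changes of 0.43 and 0.58. Among 23 subunits of MYST complexes 3 were higher and 3 lower. EPC1, a scaffold of the TIP60 complex, was at 33.0 ± 5.11 CPM in siControl and 49.8 ± 10.8 CPM in siOGT (log2 fold change 0.58, edgeR adjusted p = 3.51e-05), and KANSL2 and ING4 had 0.31 and 0.35. EP400, the remodeller of the TIP60 complex, which was named after its values were seen, was lower (log2 fold change -0.23).

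In NuRD, a complex built on HDAC1 and HDAC2, 1 of 11 subunits was higher and 3 were lower. The histone chaperones RBBP4 and RBBP7, which are part of NuRD and SIN3, were at 243 ± 8.43 and 195 ± 12.3 CPM in siControl and at 195 ± 5.61 and 158 ± 15.4 CPM in siOGT. Their log2 fold changes were -0.32 and -0.30, and that of the remodeller CHD3 was -0.30. The proliferation list moved the same way, with 14 of 18 genes lower, and its part in these values was not tested. Of 10 other SIN3 subunits 2 were higher and 2 lower, with SIN3A at -0.24, SIN3B at 0.23 and ARID4A at 0.28. CoREST had 2 of 6 subunits higher (PHF21A at 0.24 and RCOR3 at 0.31), and 1 of 4 other NCoR and SMRT subunits was lower (TBL1X at -0.19).

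Of 21 other bromodomain proteins 4 were higher and 2 lower. SMARCA2, an ATPase of SWI/SNF, was lower (log2 fold change -0.34), and ATAD2B (0.44) and BPTF (0.26) were higher. Of 4 YEATS domain readers YEATS4 was higher (0.26). In acetyl-CoA supply 0 of 9 genes were higher and 2 were lower by edgeR. These were SLC25A1, the mitochondrial citrate carrier, at 189 ± 36.8 CPM in siControl and 154 ± 36.1 CPM in siOGT (log2 fold change -0.31, edgeR adjusted p = 0.00525), and CS, citrate synthase, at -0.20. Of the 3 mitochondrial sirtuins 0 were called by edgeR, and 0 had an unadjusted p below 0.05.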

How the data were processed

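RNA of LX-2 cells, 3 siControl and 3 siOGT libraries, was sequenced after oligo-dT enrichment with a stranded, paired-end protocol. Per the study's methods and the submitters' processing notes, the authors aligned reads to hg38 with Bowtie2 2.3.5.1 and deposited expected counts per gene symbol from RSEM 1.3.1, run strand-specifically, in which a read that fits several genes is divided between them. The values were not normalized, and whole numbers made up 85.8% to 87.7% of each library's values. A further deposited table holds the authors' comparison by DESeq2 1.36.0 (mean, log2 fold change, SE, statistic, p-value and adjusted p-value), which was not used.

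Estimated counts were rounded, and 2054 of 16907 symbols with a total below 10 were removed (0.00447% of counts), leaving 14853. Libraries were scaled with TMM factors (0.979 to 1.02). All genes were fitted together in edgeR 4.0.16 (R 4.3.3) by its two-sided quasi-likelihood test, the design holding group and replicate (the replicate block), and the Benjamini-Hochberg adjustment ran over all 14853 genes. Called means an adjusted p of at most 0.05. CPM are scaled by total and TMM factor, means carry the SD of 3 libraries, pairwise log2 ratios were taken with a prior count of 2, and standard errors and 95% confidence intervals come from the F statistic. The study's methods pair libraries of one replicate, and deviations from the group means over 12373 genes correlated between same-numbered libraries by 0.69, 0.53 and 0.33. Libraries within a group all differed by more than counting noise (chi-square per degree of freedom at least 19.4). The script was tested on simulated data.

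The members and the lists of complex subunits and cell type markers were chosen with earlier results of these data known. Values in every library are given for each called member and for HDAC2, HDAC3 and NCOR1, and at most 3 called genes with the lowest adjusted p are named per list of other genes, except where the text says that a gene was named after its values were seen. Alternatives were the fit without the block, DESeq2 1.42.0 with and without it, median-ratio size factors, library totals, no filter, filterByExpr, an adjusted p of at most 0.01 and leaving out each replicate. Positions are from GENCODE on hg38 and upstream sequences from RefSeq on GRCh38.p14, which had windows for 34 of the 39 members.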

Additional observations from a re-analysis of the deposited data

How the results depend on the processing

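Of 390 member values under the 10 alternative fits, 317 kept their direction and side of the threshold, 58 of called members lost the call, 2 gained one and 13 of members not called changed sign. Members called numbered 17 in the paired edgeR fit, 0 without the replicate block (11 at an unadjusted p below 0.05), 5 with DESeq2 without the block, 10 at an adjusted p of at most 0.01 and between 5 and 15 when a replicate was left out. The lowest of these was without replicate 1, where HDAC9, HDAC10, KAT5, SIRT1 and BRPF3 were called. All genes called numbered 3766 in the paired edgeR fit, 130 without the replicate block, 2415 with DESeq2 with it, 849 with DESeq2 without it, 2083 at an adjusted p of at most 0.01 and between 1803 and 3439 when a replicate was left out. Called genes of the lists of partner complexes, other readers and acetyl-CoA supply numbered 33, and 0 without the block (18 at an unadjusted p below 0.05), 4 with DESeq2 without it, 16 at an adjusted p of at most 0.01 and between 11 and 31 when a replicate was left out. The OGT value stayed between -2.25 and -2.11. The values that changed sign were HAT1 with library totals (0.0069) and BRD3 with DESeq2 in the paired design and with median-ratio factors (-0.0025 each), and when a replicate was left out KAT6B (-0.20 to 0.011), KAT8 (-0.24 to 0.020), NCOA1 (-0.015 to 0.081), HDAC2 (-0.028 to 0.031), BRD3 (-0.043 to 0.074), BRD7 (-0.11 to 0.022) and SAP30 (-0.052 to 0.12). Their cause was not tested. Leaving out a replicate leaves 2 pairs, so fewer samples enter those fits. Standard errors of the members ran from 0.063 for BRD8 to 0.114 for SAP30. SAP30 was the least abundant member by CPM, and its lowest count in a library was 234. BRD2, the most abundant by CPM, had a standard error of 0.069. The part of depth in these differences was not tested.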

Other observations

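Besides the proliferation genes, the cell type lists read beside the members gave the following values. Of 11 stellate and myofibroblast markers tested 6 were lower and 1, TAGLN, was higher in siOGT, and the list summed to between 6751 and 8202 CPM in siControl and between 6023 and 7163 CPM in siOGT. The markers LUM and HAND2 had means below 1 CPM, and DCN was below the filter on low counts. Of 6 macrophage and leukocyte markers 2 were detected, CD68 and CD14. Their list summed to between 131 and 162 CPM in siControl and between 176 and 208 CPM in siOGT, nearly all of it CD68, a lysosomal protein that many cell types make, while the leukocyte gene PTPRC had means of 0.536 and 0.52 CPM. Endothelial markers summed to between 3.29 and 7.86 CPM in siControl and between 3.00 and 5.87 CPM in siOGT, with VWF lower. Cholangiocyte and epithelial markers summed to between 88.7 and 128 CPM in siControl and between 91.4 and 129 CPM in siOGT, mostly SOX9, and 0 of 4 tested genes were called by edgeR. The part of these lists in the members' values was not tested.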
